A study of Mus musculus with 3 samples.

Results

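The nucleolus, ribosome biogenesis and Myc genes described here are 45 genes: the transcription factor Myc and its partner Max, enzymes that are classic Myc targets, and factors that make, modify and assemble ribosomal RNA in the nucleolus. A gene was taken where the gene name in the scanner files equalled its symbol or 1 of 6 stated older names (for example Nol5a for Nop56), which gave 37 of the 45. All 37 had, on every array, at least 1 probe well above background in each channel, among 11008 genes measured on all arrays and 27702 genes with a probe. The 8 others (Polr1a, Polr1b, Polr1c, Dkc1, Rrp9, Rrp12, Nat10 and Nop16) stood in the files under names that the rule did not list, and their values, found through a RefSeq table, are given separately. The rule takes genes by name, though the list of names was drawn up with earlier results of these data known.

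Myc, paired with Max, binds the E-box CACGTG and is known as a general activator of ribosome production: it raises genes of RNA polymerase I, of small nucleolar ribonucleoproteins (snoRNPs) and of pre-ribosome assembly. The nucleolus transcribes ribosomal DNA, cuts and modifies the precursor RNA with the help of box C/D and box H/ACA snoRNPs, and builds the small and large subunits in separate chains of assembly factors. In dividing hematopoietic progenitors this work is heavy, and the level of its genes is commonly read beside growth.

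The cells were MigA9, a mouse hematopoietic line transformed by the homeobox gene Hoxa9 and kept in medium conditioned with GM-CSF. They received 2.5 µM DB818, a small molecule that binds the minor groove of DNA and is studied as an inhibitor of HOXA9, for 6, 12 or 24 h, and untreated MigA9 cells were the control. RNA of treated cells (Cy5) and untreated cells (Cy3) was hybridised to 1 two-colour array per time, with 3 arrays in all, no repeated time and no dye swap, and the sources used here do not say whether the 3 untreated samples were separate cultures. The model is 1 line that carries its transforming gene in treated and untreated cells alike. Values are treated over untreated signal on the log2 scale (ratios, for short) unless another quantity is named. In these bulk samples fewer cells that hold a transcript and less of it per cell cannot be told apart.

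As a check of the line, 12 of 14 markers of myeloid progenitors were measured on all arrays, and 0 of 29 markers of T, B, erythroid, fibroblast or epithelial cells were. A measured gene needs a probe above background in both channels. The B cell marker Cd79b stood above background in Cy5 on 3 arrays and in Cy3 on 0. Among the myeloid markers, Elane had no probe, and Ctsg stood above background in both channels on 3 arrays but was not counted as measured. Between 40.6 and 41.1% of 41174 probes stood well above background in each channel, and repeated spots of a probe scattered by 0.034 to 0.051 (SD of the log2 ratio), which covers spotting and scanning only. The median ratio of all genes tested was 0.03 at each time.

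The ratios of the nucleolar and Myc genes were close to 0 at every time. At 6 h they ran from -0.10 to 0.40 with a median of 0.08, at 12 h from -0.19 to 0.21 with a median of 0.01, and at 24 h from -0.22 to 0.24 with a median of -0.02. At 6 h 28 of the 37 were above 0, at 12 h 24 and at 24 h 15, where 60.6, 60.2 and 60.5% of all genes were above 0. A log2 ratio of 0.32 or more at 6 h was reached by 2 members, Wdr43 (1.32-fold) and Max (1.28-fold), and by 1.90% of all genes, while 0 members and 0.681% of all genes were as far below 0. At 12 and 24 h, 0 members passed this size in either direction, beside 1.42 and 2.77% of all genes higher and 0.672 and 1.42% lower.

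**Figure D1:**
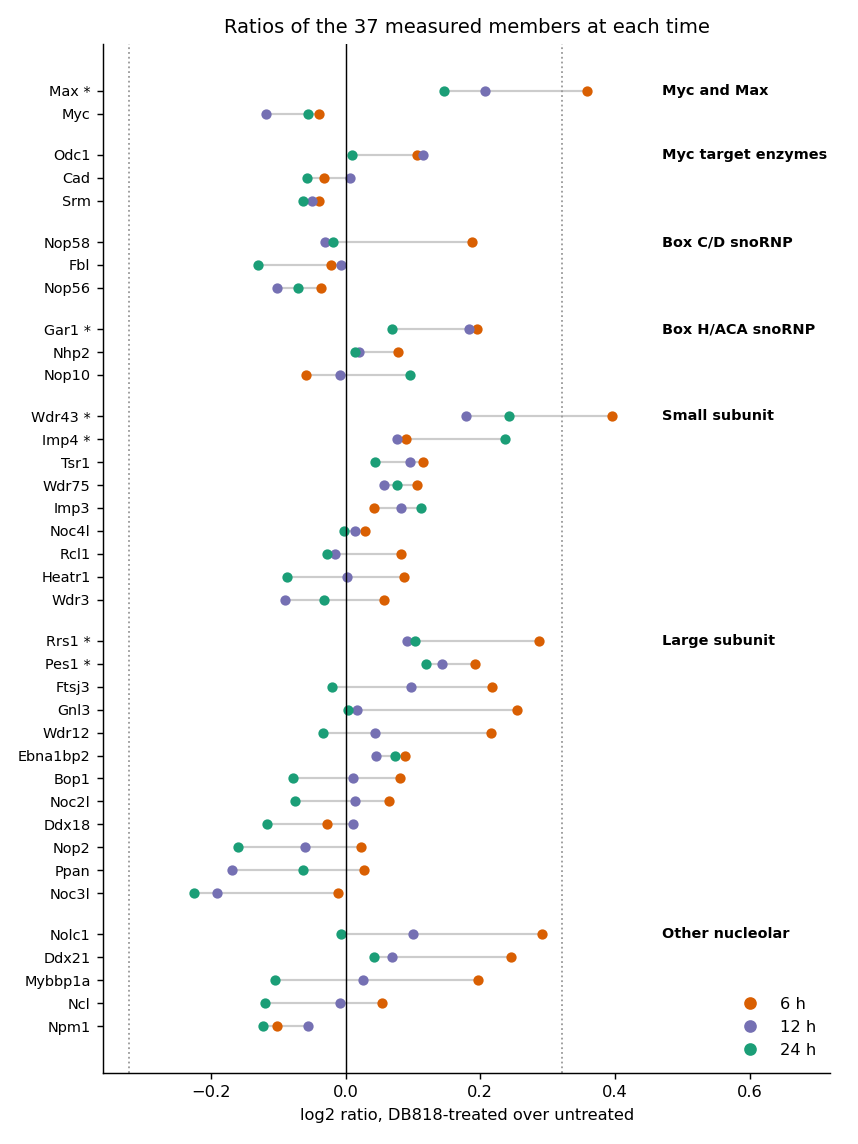
Log2 ratio of treated to untreated cells (horizontal axis) for each of the 37 measured members, grouped by role, with 1 point per time (6, 12 and 24 h), a grey line from the lowest to the highest point, dotted lines at a size of 0.32 and an asterisk on the 6 members whose mean passed the test. The 6 h points lie to the right of the 24 h points in 34 of the 37 rows, and 2 points, both at 6 h, lie beyond a dotted line.

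Whether a gene's mean ratio over the 3 times differed from 0 was tested with limma across all genes, with Benjamini-Hochberg adjustment at 0.05. Of the 37 members 6 rose, 0 fell and 31 did not pass, so 16.2% rose, against 20.0% of all genes that rose, 7.82% that fell and 27.8% called in either direction. This share is near the background and is not a result about the members. At an unadjusted p under 0.05 the count was 12 of 37 members, beside 42.4% of all genes. The test takes 3 times as repeats, so its error holds the change with time, and a dye bias that a gene shows on every array adds to its mean. From Agilent's processed signals 0 members rose and 0 fell (5.50 and 6.00% of all genes), and without the 12 h array 1 rose (Wdr43), beside 4.71% of all genes. With arrays centred on their median in place of loess 26 rose and 3 fell (37.9 and 40.9% of all genes) and 12 of the 37 means changed sign (Myc, Srm, Cad, Fbl, Wdr3, Heatr1, Imp4, Nop2, Ppan, Ddx18, Ncl and Npm1). With arrays weighted 14 rose and 8 fell (38.3 and 19.5% of all genes). With the brightest probe of each gene 5 rose (20.9% of all genes) and 3 fell (Myc, Cad and Ncl, beside 9.20% of all genes).

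Myc itself had ratios of -0.04, -0.12 and -0.06 at 6, 12 and 24 h, and its mean of -0.07 ± 0.03 (SE, n = 3 arrays) did not pass (limma adjusted p = 0.13). Its 3 probes were not alike. The brightest read -0.06, -0.21 and -0.11, the middle one -0.04, -0.15 and -0.09, and the dimmest -0.02, 0.01 and 0.04. With the brightest probe alone the mean was -0.13 (limma adjusted p = 0.048), and with median centring it was 0.09, so neither the call nor the direction was stable. Max, the obligate partner of Myc, had 1 probe and ratios of 0.36, 0.21 and 0.15, the highest at 6 h, and rose (mean 0.24 ± 0.04, limma adjusted p = 0.012, higher on 3 of 3 arrays). From Agilent's processed signals (0.23, adjusted p = 0.066) and without the 12 h array (0.25, adjusted p = 0.053) the call was missed, at much the same size.

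None of the 3 target enzymes passed. Srm, spermidine synthase, read -0.04, -0.05 and -0.06, and Cad, which carries the opening steps of pyrimidine synthesis, -0.03, 0.01 and -0.06. The 3 probes of Cad had means from -0.15 to 0.06. With the brightest probe alone Cad fell (-0.15, limma adjusted p = 0.017), so its call was not stable. Odc1, ornithine decarboxylase, read 0.11, 0.12 and 0.01, and its probes spread widely, with means from -0.06 to 0.28.

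Among snoRNP proteins, Fbl, the methyltransferase of box C/D particles, read -0.02, -0.01 and -0.13 (mean -0.05 ± 0.04, limma adjusted p = 0.29, n = 3 arrays). Its partners Nop56 and Nop58 had means of -0.07 and 0.05, and Nop58 had 0.19 at 6 h before -0.03 and -0.02. Of the proteins of box H/ACA particles, which carry out pseudouridylation, Gar1 read 0.20, 0.18 and 0.07 and rose (mean 0.15 ± 0.04, limma adjusted p = 0.025, higher on 3 of 3 arrays). Its call was missed without the 6 h array (0.13), without that of 12 h (0.13) and from Agilent's processed signals (0.08). Nhp2 and Nop10 had means of 0.04 and 0.01, and Nop10 was 1 of 3 members with a higher ratio at 24 h (0.10) than at 6 h (-0.06).

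In the small-subunit group 2 of 9 measured genes rose. Wdr43, a component of the early small-subunit processome, read 0.40, 0.18 and 0.24 at the 3 times. It was the highest of all measured members at 6 and 24 h, while at 12 h Max and Gar1 were higher. Its mean of 0.27 ± 0.05 (1.21-fold, limma adjusted p = 0.0085, higher on 3 of 3 arrays) passed without each array in turn, but not from Agilent's processed signals (0.25, adjusted p = 0.068), and its 2 probes lay on the same side (0.22 and 0.32). Imp4, a protein of the U3 snoRNP, read 0.09, 0.08 and 0.24 and passed narrowly (mean 0.13 ± 0.04, limma adjusted p = 0.046). Its 1 probe was the dimmest of the member probes used at every time, with a mean log2 signal of 6.37. Member probes that missed the filter on at least 1 array had mean log2 signals from 5.82 to 6.22. The call of Imp4 was missed without the 12 h array (0.16) or the 24 h array (0.08). With dim probes of all genes kept, its mean was unchanged at 0.13, but the call was missed (limma adjusted p = 0.067). Agilent's processed signals also missed the call (0.09), and the mean of Imp4 turned to -0.52 with median centring. Its partner Imp3 (0.04, 0.08 and 0.11) and the assembly factors Tsr1 and Wdr75 had means of 0.08 each, and Heatr1, Wdr3, Rcl1 and Noc4l had means from -0.02 to 0.01. None of these 7 passed.

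In the large-subunit group 2 of 12 rose. Rrs1, which brings the 5S particle into the pre-ribosome, read 0.29, 0.09 and 0.10 (mean 0.16 ± 0.04, limma adjusted p = 0.038). It was missed without the 6 h array (0.10), without the 12 h array (0.20), with plain background subtraction (0.16), without the filter on dim probes and from Agilent's processed signals (0.14). Pes1 read 0.19, 0.14 and 0.12 (mean 0.15 ± 0.03, limma adjusted p = 0.015), but its call rested on the dimmer of 2 probes (0.42, 0.33 and 0.29), since the brighter read -0.04, -0.05 and -0.05. From Agilent's processed signals (0.15) and without the 12 h array (0.16) it was missed. Bop1 and Wdr12, which form a complex with Pes1, had means of 0.00 and 0.08 and did not pass.

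The remaining large-subunit factors also did not pass. Gnl3 (nucleostemin) and the pre-rRNA methyltransferase Ftsj3 stood at 0.25 and 0.22 at 6 h and at 0.00 and -0.02 at 24 h. Noc3l had the lowest mean of all members (-0.14 ± 0.05, limma adjusted p = 0.059, n = 3 arrays), with ratios of -0.01, -0.19 and -0.22. Nop2, Ppan, Ddx18, Noc2l and Ebna1bp2 had means from -0.07 to 0.07. A second, dimmer probe of Ebna1bp2 entered its value at 24 h alone.

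The abundant nucleolar proteins did not pass either. Npm1, a histone and ribosome chaperone, was below 0 on 3 of 3 arrays (-0.10, -0.06 and -0.12), with a mean of -0.09 ± 0.03 (limma adjusted p = 0.061). Ncl, nucleolin, read 0.05, -0.01 and -0.12. Nolc1, a chaperone of snoRNPs, read 0.29, 0.10 and -0.01, Mybbp1a, a nucleolar Myb-binding protein, 0.20, 0.03 and -0.10, and the helicase Ddx21 0.25, 0.07 and 0.04. In these last 3 the 6 h array was the high one, and by 24 h the ratio was near or below 0.

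Of the 8 genes outside the rule's names, 1 rose: Dkc1, the pseudouridine synthase of box H/ACA particles, read 0.29, 0.16 and 0.16 (mean 0.21 ± 0.04, limma adjusted p = 0.011, higher on 3 of 3 arrays). For these 8 genes no values without an array or under another normalisation are given, so how stable this call was is not known. The RNA polymerase I subunits Polr1a, Polr1b and Polr1c had means of 0.04, 0.01 and 0.08, and Rrp9, Rrp12, Nat10 and Nop16 lay from -0.08 to 0.07. With all names updated through RefSeq, 7 of 45 members rose and 0 fell, beside 20.0% of all genes that rose.

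Of the 37 genes 15 had more than 1 measured probe, and in 11 of these the mean ratios of the probes lay further apart than the highest SD of repeated spots (0.051), while in Tsr1, Noc2l, Nop56 and Rcl1 they did not. Over the 15, the range between the mean ratios of a gene's probes had a median of 0.13, against 0.10 over 3754 genes with several probes. In 9 of the 15 the probe means lay on both sides of 0, beside 41.6% of those 3754 genes. The share was thus higher in the members, and this difference was not tested. Pes1 (-0.04 and 0.35), Odc1, Wdr12 (-0.10 to 0.22) and Ncl (-0.15 to 0.11) spread most. The 2 bright probes of Ncl read -0.07 and -0.08 at 6 h and -0.25 and -0.26 at 24 h, while its 2 dimmer probes read 0.19 and 0.17 at 6 h and -0.00 and 0.04 at 24 h. All 4 were lower at 24 h than at 6 h.

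**Figure D2:**
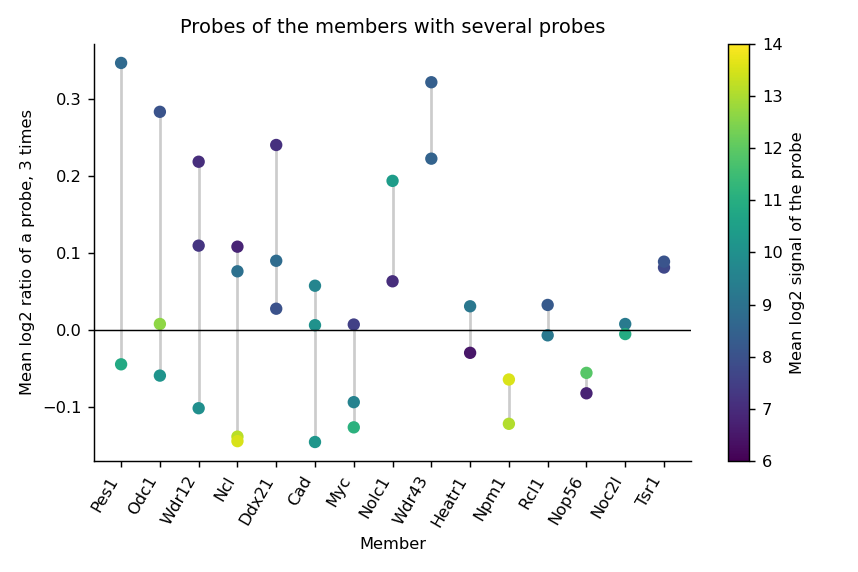
Mean log2 ratio over the 3 times (vertical axis) of each probe of the 15 members with several measured probes, ordered by the range between probes and coloured by the probe's mean log2 signal. The range is largest for Pes1 (0.39), and it exceeds the SD of repeated spots (0.034 to 0.051) in 11 of the 15 genes.

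The ratios of these genes were lower at 24 h than at 6 h in 34 of 37 cases, where 5507 of 11008 genes (50.03%) were, and the median difference was -0.11, against 0.00 over all genes. Imp4, Nop10 and Imp3 were the exceptions. By role, the median difference was -0.20 in the 5 other nucleolar proteins and -0.17 in the 12 large-subunit factors, of which all were lower. It was -0.07 in the 9 small-subunit factors and -0.02 in the 3 target enzymes. The count stayed at 33 or 34 of 37 under every alternative background correction, normalisation, filter and choice of probe. The members are bright, with 21 of 37 above the 75th percentile of signal, and 51.0% of all genes above it were lower at 24 h than at 6 h. Loess sets the ratios of bright genes near 0 on each array, so that share was largely fixed in advance. Whether brightness had a part in the lower ratios of the members was not tested.

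**Figure D3:**
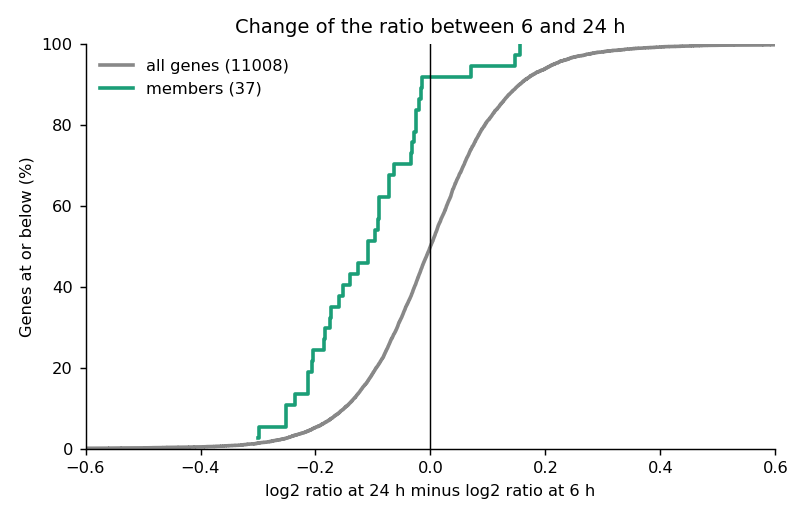
Cumulative share of genes (vertical axis, percent) by the log2 ratio at 24 h minus that at 6 h (horizontal axis), for the 37 members and all 11008 genes. The curve of all genes crosses 0 at 50.03%, while 34 of the 37 members lie below 0.

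A slope over the steps 6 to 12 and 12 to 24 h, where a dye bias shared by the arrays drops out, was tested in limma with 1 residual degree of freedom. By this test 2 of the 37 members were called, beside 3.21% of all genes (1.34% with a falling ratio). At an unadjusted p under 0.05 the count was 15 of 37 members, beside 2206 of 11008 genes (20.0%). Nolc1 fell by 0.15 ± 0.03 per step (SE, limma adjusted p = 0.041) and Mybbp1a fell by 0.15 ± 0.03 per step (limma adjusted p = 0.037). Of the 2 probes of Nolc1, the brighter read 0.48, 0.16 and -0.05 and the dimmer 0.11, 0.04 and 0.04. From Agilent's processed signals the slopes were -0.17 and -0.18 (adjusted p = 0.28 and 0.24), and with median centring, plain subtraction or no filter on dim probes 0 members were called.

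The levels in each channel showed in which cells the signal moved. After quantile normalisation of the channels, the untreated signal was lower on the 24 h array than on the 6 h array in 33 of the 37 genes, with a median difference of -0.17 in log2 signal, where 54.6% of all genes were lower with a median of -0.01. In treated cells 35 of 37 were lower, with a median of -0.27, against 52.9% and -0.01 over all genes. Between 6 and 12 h the median difference was -0.03 in untreated and -0.11 in treated cells, and between 12 and 24 h it was -0.12 and -0.17. The small untreated difference between 6 and 12 h turned to 0.01 with channels scaled by their median. The lower ratio at 24 h thus came with lower signals in both channels, more so in the treated one. These differences between arrays were not tested, no time was repeated, and hybridisation, culture and time cannot be told apart.

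**Figure D4:**
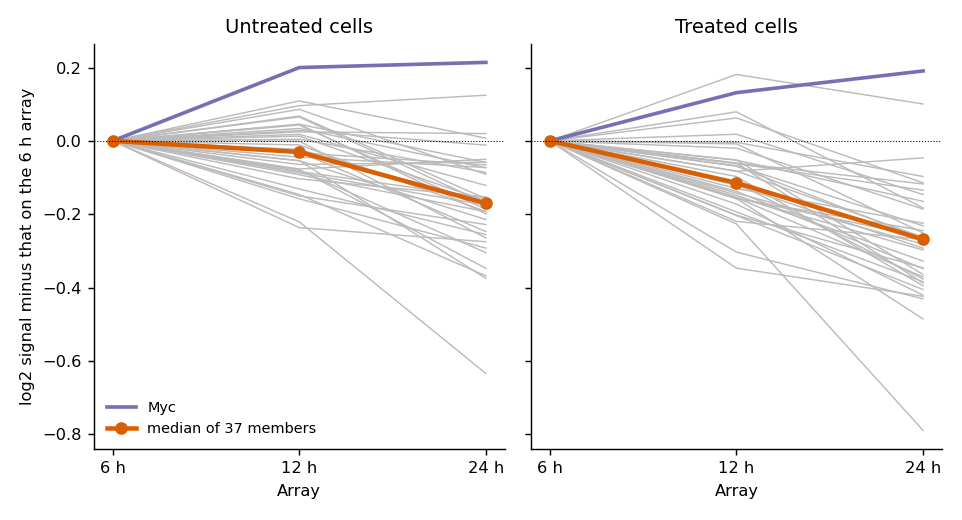
Log2 signal of each of the 37 members on the 6, 12 and 24 h arrays (horizontal axis) minus its signal on the 6 h array (vertical axis), for untreated cells (left) and treated cells (right), after quantile normalisation. The orange line is the median of the members, which reaches -0.17 in untreated and -0.27 in treated cells, and the purple line is Myc, which lies above 0 in both.

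Myc went the other way in both channels, and so did Imp3. The untreated log2 signal of Myc was 9.30, 9.50 and 9.52 on the 6, 12 and 24 h arrays, and its treated signal 9.23, 9.36 and 9.42. Imp3 had 10.34, 10.45 and 10.35 in untreated and 10.335, 10.52 and 10.44 in treated cells. Gar1 had the widest change: its untreated signal was 9.04, 8.82 and 8.40 and its treated signal 9.19, 8.96 and 8.40. For Nolc1 the untreated signal was nearly level at 8.68, 8.70 and 8.66, while the treated signal was 8.94, 8.78 and 8.64. Mybbp1a was alike, with 8.90, 8.93 and 8.92 in untreated and 9.05, 8.93 and 8.76 in treated cells. For 30 of the 37 genes the range of the untreated signal over the 3 arrays exceeded the size of the mean ratio. The share of all genes for which it did was not computed, so this count is not a result about the members. The median untreated range was 0.19 in the members and 0.12 over all genes.

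The other genes of these pathways were read from lists written from general knowledge. Of 42 further small-subunit factors 13 rose and 0 fell, led by the kinase Riok1 (0.31 ± 0.03) and the helicase Ddx52 (0.23 ± 0.03). Of 52 genes listed as further large-subunit factors 11 rose and 0 fell. The highest were Dhx9 (0.30 ± 0.03), a helicase not known mainly for this work, and Surf6 (0.23 ± 0.03, but -0.02 with median centring). All errors in these sentences are SE over 3 arrays, and the shares are to be read beside 20.0% of all genes that rose. Of 28 genes of RNA polymerases I and III 12 rose and 2 fell. Tcof1, the treacle protein of ribosomal DNA transcription (0.21 ± 0.04), and Bdp1, a polymerase III factor (0.20 ± 0.04, but 0.02 with median centring), rose, and Ubtf, which binds ribosomal DNA promoters (-0.18 ± 0.03), and Maf1, a polymerase III repressor (-0.10 ± 0.03), fell, though Ubtf and Maf1 turned to 0.09 and 0.23 with median centring. Of 24 genes of RNase MRP, RNase P and the exosome 5 rose and 0 fell, with Exosc2 and Exosc4 at 0.14 each.

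Of 21 genes that partner or regulate Myc 6 rose and 3 fell. The ubiquitin ligase Huwe1 (0.33 ± 0.04) rose on every array, and the Max partner Mxd1 (0.23 ± 0.07) had ratios of -0.00, 0.39 and 0.31, with its rise missed from Agilent's processed signals (0.03 with median centring). The repressors Mxd3 (-0.15 ± 0.03) and Mnt (-0.12 ± 0.04, but 0.14 with median centring) fell. Of 52 further Myc targets 13 rose and 5 fell, with Ptma (0.42 ± 0.03), which encodes prothymosin alpha, and the cyclin Ccnd2 (0.28 ± 0.03) highest and the kinase Cdk4 (-0.24 ± 0.04, but 0.00 with median centring) and the helicase subunit Mcm7 (-0.15 ± 0.04, but 0.28 with median centring) lowest. Of 17 genes of p53 and its nucleolar signalling 3 rose, among them the p53 gene Trp53 (0.29 ± 0.04) and Trp53inp1 (0.28 ± 0.07, but 0.11 with median centring), and 1 fell, Pmaip1 (-0.15 ± 0.04, but 0.10 with median centring). The calls of Riok1, Dhx9, Surf6, Bdp1, Huwe1, Ptma, Ccnd2, Cdk4 and Trp53 also passed from Agilent's processed signals and without the 12 h array, and the other genes named from the lists so far missed at least 1 of the 2.

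Over time, the assembly factors outside the rule followed the same order as the members, and ribosomal proteins did not. The median ratio was 0.13, 0.04 and 0.01 in the further large-subunit factors at 6, 12 and 24 h and 0.09, 0.06 and 0.03 in the further small-subunit factors. In the further Myc targets it was 0.06, 0.04 and -0.04, and 43 of 52 were lower at 24 h than at 6 h, as were 43 of 52 large-subunit and 32 of 42 small-subunit factors. Of 69 cytosolic ribosomal protein genes, whose many pseudogenes may share probes, 13 rose and 6 fell. Rpl14 (0.30 ± 0.04) and Rpl26 (0.23 ± 0.03) were highest and Rps2 and Rpl10 (-0.15 each, but 0.49 and 0.38 with median centring) lowest, and the calls of Rpl14 and Rpl26 passed from Agilent's processed signals and without the 12 h array, while those of Rps2 and Rpl10 passed in neither. The 69 had medians of -0.02, 0.02 and 0.06, and 10 of the 69 were lower at 24 h than at 6 h. Their untreated signal was lower at 24 h by a median of -0.07 and their treated signal differed by 0.01. The difference between ribosomal proteins and the members was not tested.

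**Figure D5:**
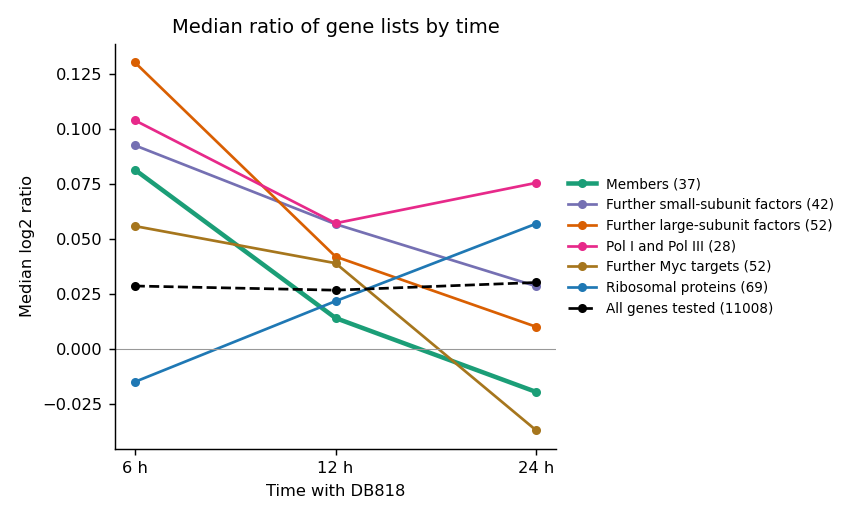
Median log2 ratio of treated to untreated cells (vertical axis) at 6, 12 and 24 h for the members, 5 further gene lists and all genes tested, with the number of measured genes in brackets. The members go from 0.08 to -0.02, the ribosomal proteins from -0.02 to 0.06, and all genes stay at 0.03.

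RefSeq promoter windows (250 bases before to 50 after a gene's start, build GRCm38.p6) were available for 31 of the 37 measured members, and were searched for the E-box CACGTG, which reads the same on both strands. It was present in 7 of the 38 listed members with a window (18.4%), against 8.09% of all 27025 genes. All 7 were among the 31 measured members with a window, where 12.7% of 5710 measured genes had it. The core TGATTTA of a Hoxa9 and Pbx site, searched on both strands, was in 0 of 38 members, in 3.47% of all genes and in 1.73% of measured genes. Of the 7 genes with an E-box 4 rose (Max, Wdr43, Pes1 and Imp4), and 1 of 24 without it did (Gar1). Rrs1, which also rose, had no window and is in neither count, and Myc, Srm, Fbl, Bop1 and Npm1 had none either. Over all measured genes the shares that rose were 21.1% with and 19.0% without an E-box. A match is a description of the letters, and the 4 calls are those whose limits are given above.

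The stretches below are shown because they place the E-box (capitals) in the members that passed a test, followed by Nop2 and Tsr1, which carry it and did not pass. Max lies at chr12:76962246-76962275 on the minus strand, Wdr43 at chr17:71616208-71616237, Pes1 at chr11:3963885-3963987, Imp4 at chr1:34439669-34439768, Mybbp1a at chr11:72441347-72441376, Nop2 at chr6:125131783-125131882 and Tsr1 at chr11:74898010-74898109, all on the plus strand from Wdr43 on.
Max: ctaccccggcgcggtgagcccggtCACGTG
Wdr43: ccggtgcgcctgcgcccgggcgaaCACGTG
Pes1: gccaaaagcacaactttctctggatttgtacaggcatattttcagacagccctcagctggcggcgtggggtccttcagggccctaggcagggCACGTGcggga
Imp4: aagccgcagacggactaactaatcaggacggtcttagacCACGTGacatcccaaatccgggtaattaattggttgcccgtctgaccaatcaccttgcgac
Mybbp1a: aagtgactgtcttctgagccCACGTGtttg
Nop2: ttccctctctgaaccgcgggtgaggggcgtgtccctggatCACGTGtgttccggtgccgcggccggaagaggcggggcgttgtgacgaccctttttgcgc
Tsr1: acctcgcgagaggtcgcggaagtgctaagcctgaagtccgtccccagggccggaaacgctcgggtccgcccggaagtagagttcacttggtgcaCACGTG

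The E-box begins at position -3 from the start used for Max and at -121 and -60 for Imp4 and Nop2. In Pes1, Wdr43, Tsr1 and Mybbp1a it begins at bases 3, 18, 25 and 41 of the transcript. The mean ratios of Nop2 and Tsr1 were -0.07 and 0.08, and neither passed; that of Nop2 was 0.29 with median centring.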

How the data were processed

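The 3 arrays were scanned and extracted by the authors with Agilent Feature Extraction 9.1.3.1, per the submitters' processing notes. The deposited scanner files hold intensity per spot and channel, and the deposited log10 ratios of the value table, treated (Cy5) over untreated (Cy3) per the labels, equalled those in the scanner files (largest difference 0, median 0 on each array). From mean foreground and median background, normexp (offset 50) and then loess within each array were run in limma 3.58.1 (R 4.3.3, data.table version 1.17.8), with control spots at weight 0 in loess. Spots of a probe were averaged without outlier spots (37, 36 and 52), which had stayed in the earlier steps. A gene's probes were then averaged, where unsaturated and well above background in each channel. The mean over the times (2 residual degrees of freedom, prior 4.86) and the slope (1, prior 8.67) were tested with eBayes on 11008 genes. This procedure was also run on simulated data with independent errors and planted means and slopes. The simulation held no dye bias and no dependence of the ratio on brightness, so it cannot speak to those limits. The number of arrays limits the precision, and no replicate culture is stated. Summaries and plots were made in Python 3.11.15 (pandas 2.3.3, numpy 2.4.6, matplotlib 3.10.9).

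Values are given for Myc, Max, Ncl, Npm1, Fbl and each member that passed a test or a log2 ratio of 0.32, the others mostly by role and range. From each further list the 2 highest and 2 lowest called means are named. List genes were matched by file name or RefSeq synonym. Ebp and Arf1 were listed although their known functions lie elsewhere, and Dhx9 is not known mainly as a large-subunit factor. Members and lists were chosen with earlier results of these data known.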

Additional observations from a re-analysis of the deposited data

Results flagged for a closer look

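The ratios of Nolc1 and Mybbp1a differed between times by the test of the slope over all genes. The slope was -0.15 per step for Nolc1 (limma adjusted p = 0.041) and -0.15 per step for Mybbp1a (limma adjusted p = 0.037), with ratios of 0.29, 0.10 and -0.01 for Nolc1 and 0.20, 0.03 and -0.10 for Mybbp1a at 6, 12 and 24 h. The call was missed for both with plain background subtraction (adjusted p = 0.10 and 0.093), without the filter on dim probes (adjusted p = 0.085 and 0.077), with median centring and from Agilent's processed signals.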

How the results depend on the processing

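With median centring in place of loess, 4176 genes rose and 4506 fell, 26 members rose and 3 fell, 79 genes and 0 members were called for the change with time, the medians of the members were 0.33, 0.18 and 0.19 at 6, 12 and 24 h, and 22, 12 and 14 members passed a log2 ratio of 0.32. That setting leaves the dependence of the ratio on brightness in place, and 33 of 37 members are brighter than the median gene. Fbl (0.52), Ncl (0.18), Npm1 (0.43) and Imp4 (-0.52) turned their sign under it, as did Myc, Srm, Cad, Wdr3, Heatr1, Nop2, Ppan and Ddx18 (12 of 37 in all), and Pes1 (-0.0449) did with its brightest probe. From Agilent's processed signals 605 genes rose, 0 members rose, 0 genes and 0 members were called for the change with time, the 24 h median of the members was -0.0715, and 4, 1 and 2 members passed 0.32. With arrays weighted 4211 genes rose and 2145 fell, with 14 and 8 members. At a false discovery rate of 0.01, 676 genes and 1 member rose and 229 genes fell. At 0.10, 3035 genes and 10 members rose, and 1305 genes and 2 members fell. With the brightest probe 1011 genes and 3 members fell, and 592 genes were called for the change with time. With no background correction 847 genes and 2 members fell. Plain background subtraction called 97 genes and 0 members for the change with time and put 1 member past 0.32 at 24 h, and no filter on dim probes called 130 genes and 0 members. At a log2 ratio of 0.20, 8, 1 and 3 members passed at the 3 times, and at 0.58 (1.5-fold) 0 did at 6 h. No share of all genes past a log2 ratio is given for the settings of this section. The counts of members past it are therefore not results about the members. Leaving out an array gave 519 to 2286 genes that rose, 182 to 949 that fell, 1 to 7 members that rose and 0 to 1 that fell, with the lowest counts of rises without the 12 h array. The cause of these differences was not tested. For the 12 members tested singly, 132 of the alternative means kept direction and call, 17 lost the call, 8 gained it, and 11 turned the sign: the 5 above, Myc with median centring (0.09), Ncl with plain subtraction, from Agilent's signals and without the 24 h array (0.00 to 0.02), and Mybbp1a from Agilent's signals and without the 6 h array (-0.00 and -0.04). Counts of members lower at 24 h than at 6 h, in ratio or in either channel, were within 1.5 times of the values given in every setting run, including the channel scalings, which were chosen after seeing the data. No paired analysis was possible because the times share fewer than 2 replicate numbers, and each ratio already pairs the treated and untreated samples of its array.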
